A study of Mus musculus with 12 samples.

Results

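Mbnl3 and 8 other splicing regulators of the liver, Mbnl1, Mbnl2, Celf1, Celf2, Esrp1, Esrp2, Ptbp1 and Rbfox2, were followed through normal mouse livers and spontaneous liver tumors. They are 9 of the 26301 genes in the count table, found by their Entrez identifiers, and all 9 were present. The set was picked with the tumor results known, because Mbnl3 was higher in tumors that had lost Rb1, so its level in those tumors is given below as a description and carries no p value. The other 8 genes were taken as splicing factors of the switch from the fetal to the adult liver and were not chosen by their values. RNA was sequenced from 12 adult mice, 4 per group, and the animals were harvested at the end of life. The control group was non-tumor liver of wild-type mice. The tumors labelled DKO came from mice with Alb-Cre driven knockout of E2f7 and E2f8, which encode the atypical E2F repressors, and the tumors labelled TKO from mice in which Rb1, the gene of the retinoblastoma protein, was knocked out together with E2f7 and E2f8. Alb-Cre deletes in hepatocytes, so stromal, endothelial and immune cells of a tumor keep the 3 genes, and all mice were bred into FVB.

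Alternative splicing lets a gene give several mRNAs, and RNA-binding proteins decide which exons are kept. In the fetal liver CELF1 is abundant and ESRP2 is low, and in the adult liver ESRP2 takes over a large part of the exon choices of hepatocytes while CELF activity falls. Muscleblind-like proteins (MBNL1, MBNL2 and MBNL3) bind short motifs around a GC step in RNA and mostly favor adult exon patterns, and MBNL3 stands apart in being made in proliferating and fetal cells and little in adult tissue. PTBP1 binds pyrimidine tracts and often represses exons, and RBFOX2 binds GCAUG and acts as a repressor or an activator depending on which side of the exon it sits. The values below are read counts over whole genes and do not show which exons were used.

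Libraries held 9165812 to 16190797 counts in the control group, 13156779 to 16424973 in the DKO group and 10455159 to 16313303 in the TKO group, and albumin mRNA took 4.82 to 22.7% of them. Rb1 was at 6.52 to 11.3 CPM (counts scaled to library size by TMM, so that libraries can be compared) in the 8 libraries that keep it and at 3.21 to 5.47 CPM in the TKO libraries. E2f7 was at 4 to 24 counts in every library and E2f8 at 61 to 88 counts in control livers and 99 to 681 counts in tumors, so the knockout of these 2 genes could not be read from counts over the whole gene, and the groups are named here as the labels name them. All 12 libraries had at most 6 Xist counts and many counts of Y-linked genes, so Mbnl3, a gene of the X chromosome, was compared among animals that all showed the male pattern. In bulk tissue, fewer cells of a type and less RNA per cell cannot be told apart.

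Because Rb1, E2f7 and E2f8 act on genes through E2F sites, the promoter of Mbnl3 is shown beside another member promoter. That promoter was the only one of a member to hold either of the 2 exact forms of the E2F site searched here. RefSeq promoters (GRCm38.p6, 250 bases before to 50 after the start) were given for 6 of the 9 members, Esrp1, Esrp2 and Rbfox2 not among them, with 11 promoters in all. TTTCCCGC and TTTGGCGC, 2 forms of the E2F site, were searched on both strands, and a promoter was counted once where matches overlapped or recurred. The Mbnl3 promoter (chrX:51205941-51206240, minus strand, 59.0% GC) held neither form. The second Mbnl1 promoter (chr3:60500929-60501228, plus strand, 75.0% GC) held TTTCCCGC at position 31, counted from 1 at the 5′ end, which is 220 bases before the start. Capitals mark the match.
Mbnl3 promoter: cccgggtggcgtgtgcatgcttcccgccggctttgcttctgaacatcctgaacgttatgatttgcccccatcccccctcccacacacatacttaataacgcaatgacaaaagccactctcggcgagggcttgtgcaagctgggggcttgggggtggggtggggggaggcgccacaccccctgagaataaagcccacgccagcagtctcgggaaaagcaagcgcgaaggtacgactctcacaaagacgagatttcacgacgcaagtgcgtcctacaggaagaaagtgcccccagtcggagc
Mbnl1 promoter 2: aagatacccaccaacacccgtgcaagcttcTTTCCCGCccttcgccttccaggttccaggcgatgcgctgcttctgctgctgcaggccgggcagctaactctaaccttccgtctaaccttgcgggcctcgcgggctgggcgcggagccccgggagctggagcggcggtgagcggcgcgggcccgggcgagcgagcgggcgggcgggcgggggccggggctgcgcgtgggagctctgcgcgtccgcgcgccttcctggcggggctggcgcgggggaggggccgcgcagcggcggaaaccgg
Of all 32851 promoters in the table, 514 (1.56%) held one of the 2 forms. A match is only a description of these letters. Shorter or variant forms of the site were not searched, so the absence of a match says nothing of E2F proteins at Mbnl3.

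The reads were 40 bases long, so it matters whether Mbnl3 can be told from its paralogs. Mbnl3 (Entrez 171170) lies on chromosome X from 48470446 to 48559709, minus strand, in mm9 (GENCODE vM1), with 8733 bases in 11 merged exons. Its longest exact match to exons of Mbnl1 and of Mbnl2 shows how far the paralogs have parted, and these stretches are printed for that reason.
Mbnl3 and Mbnl1, chrX:48483394-48483409, minus strand: tctgcatggattacat
Mbnl3 and Mbnl2, chrX:48483330-48483344, minus strand: cacttgcaggccaaa
The stretches are 16 and 15 bases long, so 0 windows of 40 bases were shared with either paralog. Of 8319 such windows within Mbnl3 exons, 8029 (96.51%) occurred once in the genome. This share was 99.67% to 100% for the other members except Ptbp1, for which it was 83.51%, so the Ptbp1 counts depend more on how reads with several positions were treated, which is not given in the sources used here.

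Mbnl3 was counted in every library, barely in control livers and DKO tumors and at a higher level in all TKO tumors. It had 7, 2, 7 and 7 counts in control livers 1 to 4, which is 0.519, 0.246, 0.474 and 0.513 CPM. The DKO tumors had 7, 13, 16 and 6 counts, or 0.537, 1.03, 0.946 and 0.354 CPM. The TKO tumors had 49, 33, 47 and 79 counts, or 2.96, 2.35, 3.60 and 5.89 CPM. Every TKO tumor lay above every other library, with a gap between the highest DKO tumor at 1.03 and the lowest TKO tumor at 2.35 CPM, while control livers and DKO tumors overlapped. The group means were 0.438 ± 0.130, 0.716 ± 0.324 and 3.70 ± 1.55 CPM (SD, n = 4 each) in control, DKO and TKO.

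The fitted change of Mbnl3 was 8.07-fold from control to TKO (log2 3.01, SE 0.427) and 5.13-fold from DKO to TKO (log2 2.36, SE 0.402). These contrasts chose the gene, so no test is given. The DKO against control contrast did not enter the choice, and there Mbnl3 differed by a log2 of 0.65 (SE 0.444, 95% interval -0.22 to 1.53, edgeR quasi-likelihood adjusted p = 0.397). Mbnl3 passed the filter on low counts only through the TKO libraries, so this test depends on the group that chose the gene. With the 8 libraries of the contrast alone it was filtered out, and with no filter the log2 was 0.66 (adjusted p = 0.527, edgeR). In a single library 3 counts correspond to 0.203 to 0.369 CPM in the control group and to 0.177 to 0.237 CPM in the DKO group, so the precision of the low values is set by a handful of reads, and the TKO values rest on 208 counts in all.

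**Figure D1:**
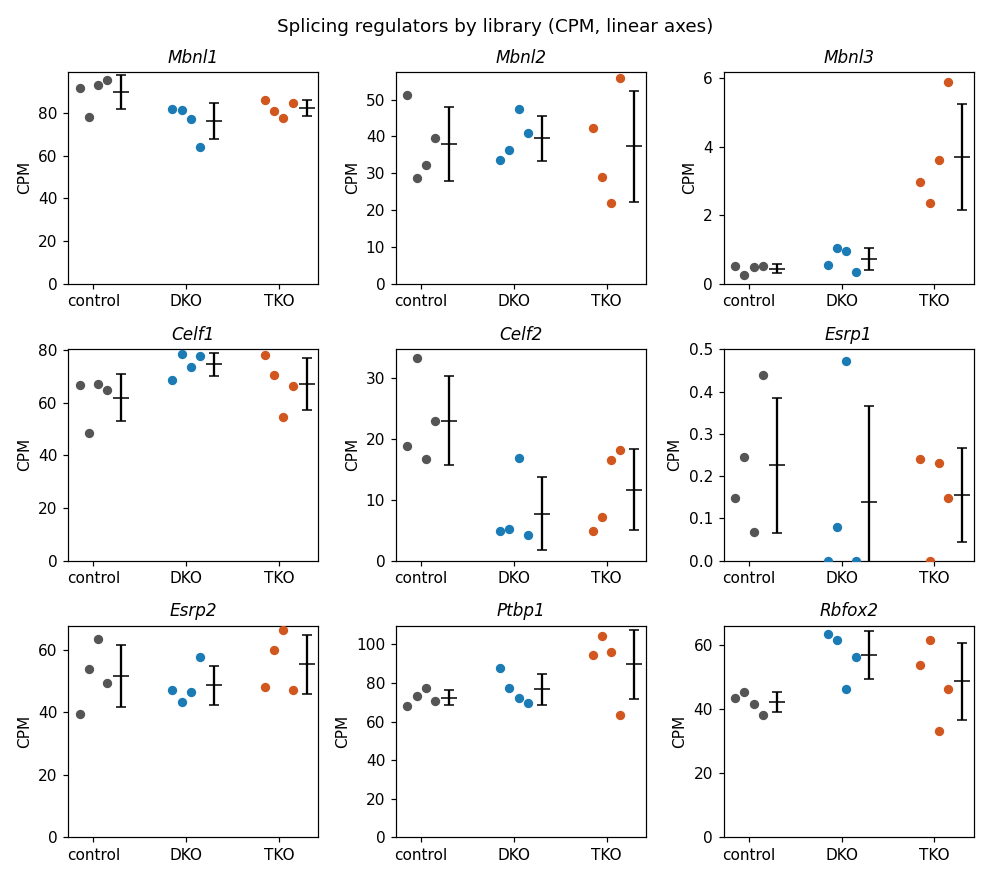
Each panel gives a gene, with TMM-scaled CPM on a linear axis from 0, a point for each library from replicate 1 at the left to replicate 4 at the right of its group, and the mean with its SD beside them (n = 4, the bar being cut at 0 for Esrp1 in DKO). Mbnl3 stood apart in TKO tumors at 2.35 to 5.89 CPM, Celf2 was spread from 4.19 to 18.2 CPM over the tumors, and most other genes varied little between groups.

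A gene can rise many-fold and remain a small part of its family, so the 3 muscleblind genes were compared per length of exon. Mbnl1 (chromosome 3, 60277032 to 60433670) gave the largest signal of the family, with 15.9 CPM per kb in control livers against 8.30 for Mbnl2 (chromosome 14, 120674891 to 120830919) and 0.0502 for Mbnl3. Mbnl3 made up 0.216, 0.140, 0.230 and 0.229% of the MBNL signal in control livers. In DKO tumors its share was 0.281, 0.523, 0.449 and 0.199%. In TKO tumors it was 1.36, 1.28, 2.18 and 2.42%. The mean share was thus 0.204 ± 0.0431%, 0.363 ± 0.149% and 1.81 ± 0.574% (SD, n = 4), and even in the TKO tumor with the highest share all but 2.42% of the MBNL signal came from Mbnl1 and Mbnl2.

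**Figure D2:**
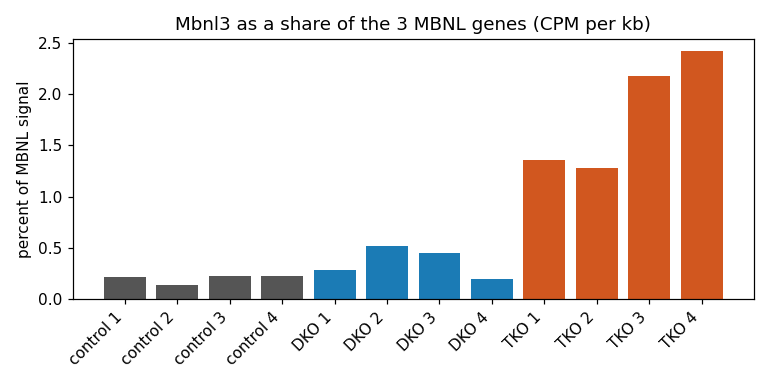
Bars give, for each library, the percent of the summed CPM per kb of Mbnl1, Mbnl2 and Mbnl3 that belonged to Mbnl3, on an axis from 0. The share ran from 0.140 to 0.523% in control livers and DKO tumors and from 1.28 to 2.42% in TKO tumors.

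Mbnl1 and Mbnl2, the abundant members of the family, showed no such change. Mbnl1 was at 91.7, 78.1, 93.3 and 95.6 CPM in control livers, at 81.8, 81.6, 77.1 and 64.1 in DKO tumors and at 86.1, 81.1, 77.6 and 84.9 in TKO tumors. The groups overlapped, and the difference of DKO from control was a log2 of -0.24 (SE 0.118, adjusted p = 0.248, edgeR) and that of TKO from control -0.12 (SE 0.118, adjusted p = 0.656, edgeR). Mbnl2 ranged from 28.8 to 51.3 CPM in control livers, from 33.5 to 47.4 in DKO tumors and from 21.8 to 55.8 in TKO tumors. TKO tumors thus held both the lowest and the highest Mbnl2 library, and between TKO and DKO the log2 difference of -0.08 had a 95% interval from -0.61 to 0.44 (adjusted p = 0.941, edgeR).

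The CELF proteins bind GU-rich RNA and oppose the muscleblind proteins on many exons. Celf1 (chromosome 2, 90780539 to 90859654) was at 67.0, 48.6, 67.3 and 64.9 CPM in control livers and at 68.8, 78.5, 73.5 and 77.7 in DKO tumors. TKO tumors had 78.1, 70.6, 54.5 and 66.3 CPM. All DKO tumors lay above all control livers, but by little, and the log2 difference of 0.27 (SE 0.142) did not pass the test (adjusted p = 0.272, edgeR). The TKO tumors overlapped with both other groups, with log2 differences of 0.12 from control (adjusted p = 0.727, edgeR) and -0.15 from DKO (adjusted p = 0.772, edgeR).

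Celf2, which is better known from muscle, brain and lymphoid cells than from hepatocytes, varied most between the tumors among the well counted members, with a coefficient of variation of 78.4% in DKO and 57.0% in TKO. Celf2 (chromosome 2, 6460751 to 7002348, minus strand) was at 18.9, 33.3, 16.8 and 23.0 CPM in control livers. In DKO tumors it was at 4.83, 5.14, 16.9 and 4.19 CPM, and in TKO tumors at 4.88, 7.11, 16.5 and 18.2 CPM. DKO tumor 3 lay within the control range and the other 3 DKO tumors far below it, and TKO tumors 1 and 2 lay below the control range while TKO tumor 4 was inside it. The mean was 23.0 ± 7.34 CPM in control, 7.75 ± 6.08 in DKO and 11.7 ± 6.65 in TKO (SD, n = 4 each).

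The log2 difference of Celf2 was -1.56 in DKO against control (SE 0.509, edgeR adjusted p = 0.0960), which did not pass 0.05. DESeq2 gave an adjusted p of 0.0270 and limma voom with quality weights 0.0335 for it. DKO tumor 3 decided the edgeR result, since without it the difference was -2.28 (adjusted p = 0.0306, edgeR). In TKO against control the difference was -0.98 (SE 0.500, adjusted p = 0.358, edgeR), and in TKO against DKO 0.58 (SE 0.504, adjusted p = 0.748, edgeR), which became 1.30 without DKO tumor 3 (adjusted p = 0.357, edgeR).

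Celf2 is not a hepatocyte marker, so genes of other liver cells were set beside it, first those of stellate cells and fibroblasts, the stromal cells that lie between hepatocytes. The CPM of 6 such markers (Lrat, Des, Pdgfrb, Col1a1, Dcn and Reln) summed to 277, 277, 226 and 305 in control livers. In DKO tumors the sum was 181, 150, 452 and 112, and in TKO tumors 154, 170, 291 and 228. DKO tumor 3 thus had the highest sum and also the highest Celf2 of its group, and TKO tumors 3 and 4 had the higher Celf2 and the higher sums of theirs. Dcn, which encodes the matrix proteoglycan decorin and is a defining marker, was at 299 CPM in DKO tumor 3 against 59.7 to 117 in the other DKO tumors. Dcn made up most of the sum, and Des, Pdgfrb, Col1a1 and Reln had a higher fitted level in DKO than in control, so the median of the 6 markers was a log2 of 0.07 there beside -1.56 for Celf2. Of the 6 markers 0 were at 0 in any group, and 0 of 6 passed edgeR's test in any comparison (lowest adjusted p = 0.255). Before adjustment 0 were under 0.05, and DESeq2 called 0. Over all genes edgeR called 2.42%, 0.0864% and 0% in DKO against control, TKO against control and TKO against DKO. In the same order DESeq2 called 10.4%, 3.49% and 0.398%, and 24%, 16.3% and 9% were under 0.05 before adjustment. With 6 genes nothing is read from these counts. The 6 macrophage markers summed to 386, 146, 186 and 393 CPM in control livers, to 136, 131, 343 and 57.7 in DKO tumors and to 123, 246, 411 and 106 in TKO tumors. TKO tumor 4, with the highest Celf2 of its group, had the lowest macrophage sum. The 6 lymphocyte markers summed to 25.3, 11.1, 8.95 and 20.3 CPM in control livers, to 10.3, 9.89, 22.6 and 8.55 in DKO tumors and to 11.9, 10.7, 17.7 and 13.5 in TKO tumors. DKO tumor 3 was the highest of its group in all 3 sums, while control liver 2, with the highest Celf2 of all, was the lowest control for macrophages. DKO tumor 3 was also the highest DKO tumor for the sums of endothelial (199 CPM) and cholangiocyte markers (108 CPM), so its high sum was not particular to stromal markers. Control liver 2 was the lowest control for both of these sums, and TKO tumor 4 the lowest TKO tumor for endothelial markers. The part of these cells in the Celf2 result was not tested.

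**Figure D3:**
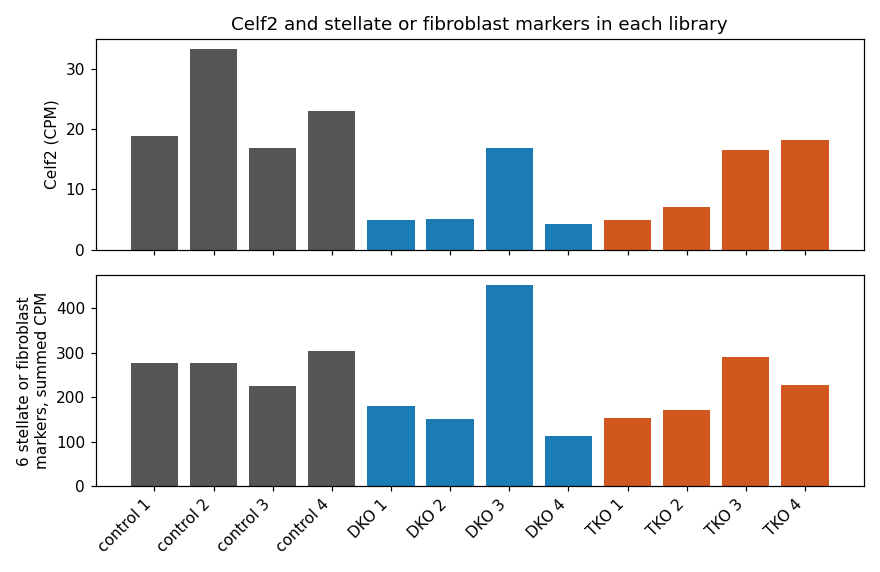
The upper bars give Celf2 in CPM and the lower bars the summed CPM of 6 stellate or fibroblast markers, in the same order of the 12 libraries, both from 0. DKO tumor 3, with 16.9 CPM of Celf2 and a marker sum of 452, stood above the other 3 DKO tumors in both.

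Within the pair, Celf2 took 16.3, 32.1, 14.7 and 19.6% of the summed Celf1 and Celf2 signal per kb in control livers. The DKO tumors had shares of 4.61, 4.32, 13.6 and 3.58%, and the TKO tumors 4.13, 6.48, 17.3 and 15.9%. The DKO tumors were all below the control livers in this share, by 14.1 percentage points on average, with p = 0.0286 in a two-sided exact permutation test of 4 against 4, the smallest p that this design can give, and 0.172 after adjustment over 6 such share tests. The TKO tumors overlapped with the control livers in the share, at a difference of -9.72 points (exact permutation p = 0.143, adjusted 0.429). Between TKO and DKO the difference was 4.41 points (exact permutation p = 0.229, adjusted 0.458). No difference in the share therefore held after adjustment.

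The epithelial splicing regulators ESRP1 and ESRP2 drive exon patterns of epithelial cells, and the liver relies on ESRP2. Esrp2 (chromosome 8, 108654219 to 108660874, minus strand) was at 39.6, 53.9, 63.6 and 49.4 CPM in control livers, at 47.3, 43.4, 46.5 and 57.8 in DKO tumors and at 48.2, 60.1, 66.5 and 47.1 in TKO tumors. The groups overlapped throughout. Its log2 differences were -0.08 (95% interval -0.41 to 0.25) in DKO against control, 0.10 (-0.23 to 0.43) in TKO against control and 0.19 (-0.14 to 0.52) in TKO against DKO, with edgeR adjusted p values of 0.803, 0.809 and 0.758. A gain or loss of Esrp2 by 2-fold thus lay outside all 3 intervals.

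Esrp1 (chromosome 4, 11259080 to 11313930, minus strand) had 0 to 8 counts per library, 11 summed over the control livers, 9 over the DKO tumors and 9 over the TKO tumors. It was left out by the filter on low counts, and a difference between groups was not detectable at this depth. The highest Esrp1 library was DKO tumor 3, with 8 counts, and DKO tumors 1 and 4 and TKO tumor 2 had 0, which allows up to 3 counts. Esrp2 made up at least 99.3% of the signal of the pair in every library, and the 3 differences in this share were at most 0.114 points (exact permutation p from 0.429 to 1, adjusted 0.644 to 1).

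Ptbp1 (chromosome 10, 79317172 to 79327516), which is high in dividing cells and is replaced by Ptbp2 in neurons, was at 68.1, 73.4, 77.5 and 70.7 CPM in control livers. DKO tumors had 87.9, 77.4, 72.0 and 69.8 CPM and TKO tumors 94.4, 105, 96.2 and 63.6 CPM. TKO tumors 1, 2 and 3 were the highest of all 12 libraries and TKO tumor 4 the lowest. The log2 difference of TKO from control was 0.31 (SE 0.152, 95% interval 0.01 to 0.61, adjusted p = 0.339, edgeR), and that of TKO from DKO 0.22 (SE 0.152, adjusted p = 0.673, edgeR). The interval of TKO from control is narrower than edgeR's test, which gave a p of 0.0649 before adjustment, so 0 is not excluded.

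Rbfox2 (chromosome 15, 76909420 to 77137483, minus strand) was at 43.5, 45.5, 41.5 and 38.2 CPM in control livers and at 63.4, 61.5, 46.4 and 56.4 in DKO tumors. All DKO tumors lay above all control livers, DKO tumor 3 only just. The log2 difference was 0.43 (SE 0.175), with an edgeR adjusted p of 0.156, so it did not pass. TKO tumors ran from 33.3 to 61.6 CPM, wider than both other groups, with log2 differences of 0.21 from control (adjusted p = 0.591, edgeR) and -0.22 from DKO (adjusted p = 0.722, edgeR).

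Counted together, 8 of the 9 members passed the filter on low counts, Mbnl3 only through the TKO libraries. In DKO against control 0 of the 8 passed edgeR's test at an adjusted p of 0.05, where 2.42% of all 13882 genes passed. Before adjustment 2 members, Celf2 and Rbfox2, were under 0.05 (24% of all genes), DESeq2 called 1 (10.4% of all genes), and 2, Celf1 and Rbfox2, did not overlap between the groups (16.2% of all genes), both higher in DKO (8.87% of all genes). In TKO against control the 1 member called was Mbnl3, where 0.0864% of all genes were called, and since that contrast chose it, nothing is read from this count. The same holds for the 1 member that did not overlap (7.67% of all genes), the 1 under 0.05 before adjustment (16.3%) and the 1 that DESeq2 called (3.49%). In TKO against DKO edgeR called 0 members and 0% of all genes. There the 1 member that did not overlap (4.87% of all genes), the 1 under 0.05 before adjustment (9%) and the 1 called by DESeq2 (0.398%) were again Mbnl3, which was chosen for its level in TKO tumors, so nothing is read from these counts either. The median log2 difference of the 8 tested members was 0.07, 0.11 and 0.15 in DKO against control, TKO against control and TKO against DKO, beside 0.02, 0.02 and 0.01 over all genes. The TKO medians include Mbnl3, which was chosen for its level there, so nothing is read from them. The 2 comparisons with control livers share those livers and are not independent.

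**Figure D4:**
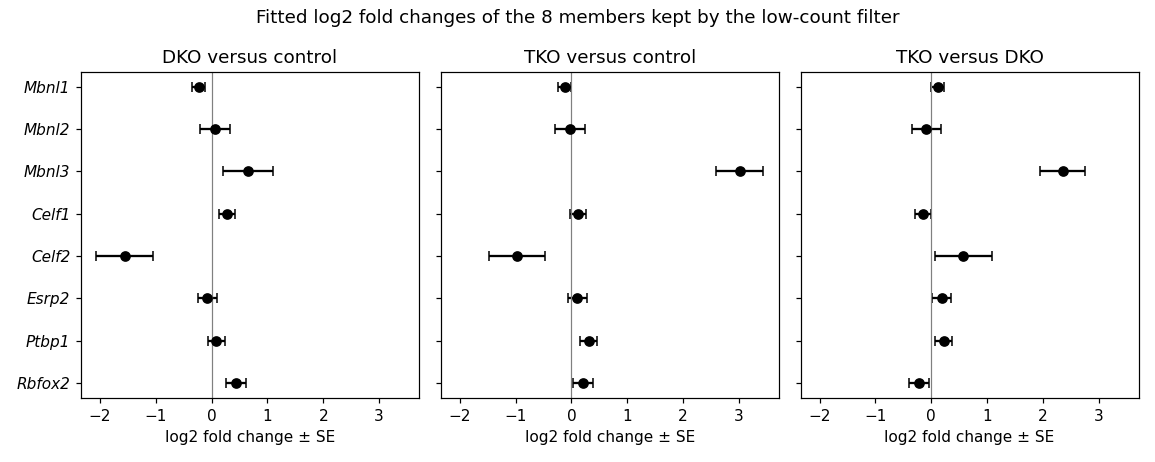
Points give edgeR's fitted log2 fold change of the 8 tested members and bars its SE, in a panel for each comparison, with a line at 0. Mbnl3 lay at 3.01 and 2.36 in the TKO comparisons, Celf2 at -1.56 in DKO against control, and all other points between -0.98 and 0.65.

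Per kb of exon the members fell into an abundant and a scarce set. In control livers the order was Mbnl1 at 15.9, Ptbp1 at 15.3, Esrp2 at 11.9, Mbnl2 at 8.30, Celf1 at 7.33, Rbfox2 at 5.69, Celf2 at 1.88, Mbnl3 at 0.0502 and Esrp1 at 0.0357 CPM per kb. Neighbors in this order had overlapping ranges over the 4 livers, except Rbfox2 above Celf2 and Celf2 above Mbnl3. The DKO tumors kept the gaps on both sides of Celf2. In TKO tumors the range of Mbnl3, with a mean of 0.424 CPM per kb, no longer lay wholly below that of Celf2, with a mean of 0.951, and no longer overlapped with that of Esrp1, with a mean of 0.0246. In each TKO library Celf2 was still higher than Mbnl3.

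**Figure D5:**
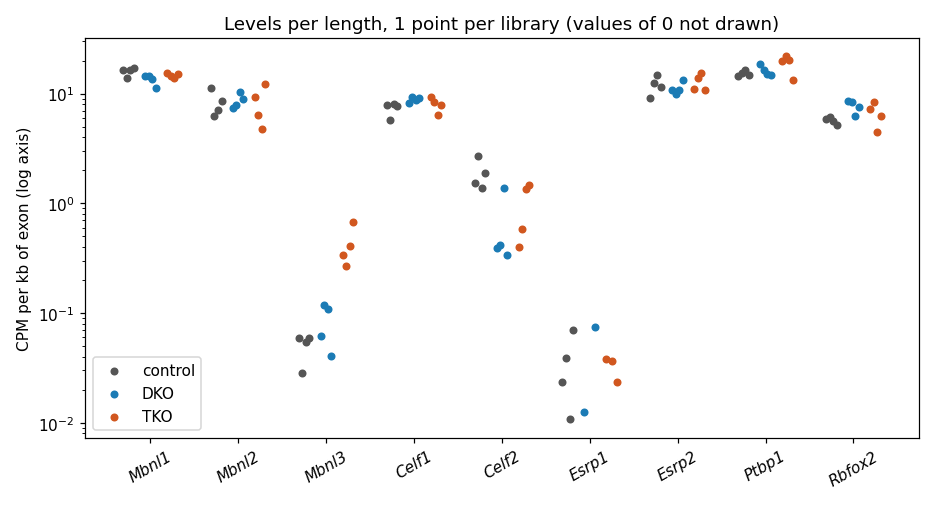
Each point is a library, on a logarithmic axis of CPM per kb of merged exon, with the 3 groups side by side for each gene and values of 0 not drawn. The 6 abundant members lay near 10 and Celf2 near 1, and Mbnl3 moved from 0.0502 on average in control livers to 0.424 in TKO tumors.

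The genes whose log2 CPM was most like that of Mbnl3 over the 12 libraries were Mcmbp, Wdr6, Cdt1, Tdg and Cdk2. Pearson's coefficients were 0.923, 0.891, 0.891, 0.888 and 0.882, a description over libraries that share the same 3 groups, with no p. Mcmbp, a binding partner of the MCM helicase, had the smallest difference between TKO and control of the 5 (log2 0.36), with means of 41.0, 44.2 and 52.6 CPM in control, DKO and TKO. Cdt1, which licenses replication origins, was at 3.89, 5.17 and 9.25 CPM. Cdk2, the kinase of S phase entry, was at 14.6, 18.5 and 27.0 CPM. Wdr6 was at 15.5, 19.2 and 31.6 CPM and Tdg, a DNA glycosylase, at 5.84, 6.41 and 7.97. By Spearman's coefficient Mcmbp was the only gene also among the first 5, so the other names depend on the measure. Among the members themselves the coefficients with Mbnl3 were small, from -0.11 for Celf2 to 0.36 for Ptbp1 (Pearson, 12 libraries, Esrp1 not tested).

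The neighbors of Mbnl3 on the X chromosome were looked up after its values had been seen, and none of those tested stood apart in TKO tumors. Within 500 kb, Firre, the gene of a long noncoding RNA (47908921 to 47988498), differed by a log2 of -0.03 between TKO and DKO (SE 0.287, adjusted p = 0.979, edgeR). Rap2c, which encodes a small GTPase and is the nearest tested gene (48357089 to 48371195), differed by -0.36 (SE 0.195, adjusted p = 0.591, edgeR). Stk26, Frmd7 and Hs6st2 had at most 16 counts in a library and were not tested. The median over 411 tested genes of the X chromosome was -0.08 in TKO against DKO and 0.03 in TKO against control.

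The other families of splicing factors were counted in the same way. SR proteins, which mostly promote exon inclusion, had 12 of 13 genes tested and 0 called in any comparison, with a lowest edgeR adjusted p of 0.0838, for Tra2a in DKO against control. In DKO against control the list ran from a log2 of -0.22 to 0.88 for Tra2a, which lay above all control livers. In TKO against DKO it ran from Tra2a at a log2 of -0.54 to Srsf7 at 0.26, and in TKO against control from Srsf5 at -0.12 to Srsf6 at 0.50. Before adjustment 3, 1 and 0 SR genes were under 0.05 in DKO against control, TKO against control and TKO against DKO, and DESeq2 called 1, 0 and 0. In the same order 24%, 16.3% and 9% of all genes were under 0.05, and DESeq2 called 10.4%, 3.49% and 0.398% of all genes. The hnRNP proteins, a large group of RNA packaging factors that often oppose SR proteins, had 23 of 23 genes tested and 0 called, with 5, 1 and 1 under 0.05 before adjustment and 1, 0 and 0 called by DESeq2. Between DKO and control their log2 differences reached 0.61 for Hnrnph1, and the lowest adjusted p was 0.0730 (edgeR), for Hnrnpu at 0.47. Between TKO and DKO they ran from Hnrnpu at -0.34 to Pcbp2 at 0.32, and between TKO and control from Hnrnpd at -0.29 to Hnrnph1 at 0.37. In DKO against control 7 of the 23 lay above all control livers and 0 below, where 8.87% of all genes lay above.

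Single calls came from other regulators and from the core spliceosome. Rbm47, an RNA-binding protein of epithelia that regulates splicing and RNA editing, was lower in DKO tumors, at 52.7 ± 4.98 against 74.4 ± 7.60 CPM (SD, n = 4 each), a log2 of -0.50 (SE 0.114, adjusted p = 0.0486, edgeR). In TKO tumors Rbm47 was at 58.7 ± 2.20 CPM, also below all control livers, without passing the test (adjusted p = 0.183, edgeR). It was the only one of 18 tested genes of its list, of 20 listed, to be called by edgeR, while DESeq2 called 3, 0 and 0 of the list in DKO against control, TKO against control and TKO against DKO and 4, 3 and 0 were under 0.05 before adjustment. Over all genes DESeq2 called 10.4%, 3.49% and 0.398%, and 24%, 16.3% and 9% were under 0.05 before adjustment. The list was widest in DKO against control, from Khdrbs3 at a log2 of -1.46 (adjusted p = 0.117, edgeR) to Nova2, a regulator best known from neurons, at 1.40 (adjusted p = 0.0548, edgeR). Nova2 was at 0.507 ± 0.143, 1.36 ± 0.391 and 1.30 ± 0.356 CPM in control, DKO and TKO, and both tumor groups lay above all control livers. Prpf31, a protein of the U4/U6 snRNP whose mutation causes retinal degeneration, was higher in DKO tumors, at 17.8 ± 1.84 against 12.4 ± 0.402 CPM (log2 0.52, SE 0.119, adjusted p = 0.0486, edgeR), and it was the only call among 17 core spliceosome genes. Both calls depended on single libraries, since edgeR called 0 of all genes in this comparison without control liver 2 or without control liver 3, and at most 7 without control liver 4 or DKO tumor 1, 2 or 4. The core list had a median log2 of 0.25 in TKO against control and 0.16 in TKO against DKO, with 0 genes called in both, 5 and 0 under 0.05 before adjustment (16.3% and 9% of all genes) and 0 and 0 called by DESeq2. In DKO against control 4 were under 0.05 before adjustment (24% of all genes) and DESeq2 called 1 (10.4% of all genes).

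The kinases that phosphorylate SR proteins and the closest relatives of the members were also followed. Of 6 kinases 0 were called, with 1, 1 and 0 under 0.05 before adjustment (24%, 16.3% and 9% of all genes) and 1, 0 and 0 called by DESeq2 (10.4%, 3.49% and 0.398% of all genes). In TKO against DKO they ran from Srpk1 at -0.21 to Clk1 at 0.27. In TKO against control they ran from Clk4 at -0.15 to Srpk1 at 0.40. Of the 8 paralogs, Celf3, Celf4, Celf5, Celf6, Rbfox1 and Rbfox3 were too low to be tested, the mean of each being at most 0.462 CPM in a group. Ptbp2 differed between TKO and DKO by a log2 of 0.25 and Ptbp3 by -0.18, and edgeR and DESeq2 called neither in any comparison (0 of 2 under 0.05 before adjustment).

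Since several members are known for a fetal pattern, genes of the fetal liver and of proliferation were set beside them. Afp, the alpha-fetoprotein gene, rose in DKO tumors to 42.2 ± 42.4 CPM from 3.31 ± 1.09 in control livers (log2 3.68, SE 0.709, adjusted p = 0.0392, edgeR). In TKO tumors Afp was at 3.94 ± 1.87 CPM, a log2 of 0.26 from control (adjusted p = 0.893, edgeR), and overlapped with control livers. It was the only edgeR call among 5 tested genes of 9 listed. In TKO against DKO Afp was at a log2 of -3.42 and Gpc3 at -0.48. Igf2bp3 was at 0.33 there, H19 at 1.11 and Igf2 at 2.81, so the list had no common direction. Over DKO against control, TKO against control and TKO against DKO, 1, 0 and 1 were under 0.05 before adjustment. Of all genes 24%, 16.3% and 9% were. DESeq2 called 1, 0 and 1 of the list (10.4%, 3.49% and 0.398% of all genes). H19 was at 32.6 ± 33.0, 50.3 ± 53.9 and 108 ± 105 CPM in control, DKO and TKO, with a spread as large as its mean. Of 8 proliferation genes Mki67 (log2 2.90, adjusted p = 0.0425, edgeR) and Plk1 (log2 2.21, adjusted p = 0.0469, edgeR) rose in DKO against control. There edgeR called 2.42% of all genes. All 8 were under 0.05 before adjustment (24% of all genes), and DESeq2 called 7 (10.4% of all genes). Of the 8, 7 lay above all control livers (8.87% of all genes), and the median log2 was 2.06. The edgeR calls, like that of Afp, were absent without control liver 2 or control liver 3, when edgeR called 0 of all genes. In TKO against control edgeR called 0 of the 8 (0.0864% of all genes) and DESeq2 1 (3.49% of all genes). Before adjustment 6 were under 0.05 (16.3% of all genes), and the median log2 was 1.51. In TKO against DKO all 8 had a lower mean in TKO, with a median of -0.63, and 0 were called by edgeR or DESeq2 (0 under 0.05 before adjustment). In these 8 genes DKO tumors were thus on average above TKO tumors, an order that differed from that of Mbnl3. The sums of the 8 genes overlapped, at 25.9 to 114 CPM in DKO tumors and 14.2 to 68.2 CPM in TKO tumors. Mcmbp, Wdr6, Cdt1, Tdg and Cdk2, outside this list, had means in the order of Mbnl3. They were picked for their likeness to Mbnl3 over the same libraries, so nothing is read from this. The difference in order between the 8 proliferation genes and Mbnl3 was not tested.

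The tissue of each library was checked by markers of liver cells. The 8 hepatocyte markers summed to 60600 to 323000 CPM and were present in every library, with 0 of 8 called by edgeR in any comparison, at most 1 of 8 under 0.05 before adjustment and at most 1 called by DESeq2. Lymphocyte markers summed to 8.55 to 25.3 CPM, endothelial markers to 112 to 286 and cholangiocyte markers to 24.4 to 108, and 0 genes of these lists passed edgeR's test in any comparison, with at most 2 of a list under 0.05 before adjustment and at most 2 called by DESeq2. Of all genes 24%, 16.3% and 9% were under 0.05 in DKO against control, TKO against control and TKO against DKO. In the same order edgeR called 2.42%, 0.0864% and 0% of all genes. DESeq2 called 10.4%, 3.49% and 0.398% of all genes. For Mbnl3, the highest library, TKO tumor 4, was also the one in which albumin took the smallest part of the counts (4.82%), while TKO tumor 2, with albumin at 18.9%, had the lowest Mbnl3 of its group. Whether albumin or cell composition had a part in the level of Mbnl3 was not tested.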

How the data were processed

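Livers and tumors of 12 mice were profiled as poly(A) RNA in SOLiD libraries. The authors mapped 40-base reads to mm9 with BWA, and featureCounts was used for the counting. The deposited table holds whole-number counts that were not normalized. Tool versions, strandedness and the handling of reads with several positions are not given in the sources used here. All 12 columns were used, and 0 columns of per-sample values were left out. Of the Entrez identifiers 24191 had a symbol, holding 99.411% of counts. Groups came from the labels, the p values set group differences against the spread between these mice, and counting intervals or floors cover counting error only.

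The 9 members and all gene lists were chosen with earlier results of these data known. The edgeR 4.0.16 quasi-likelihood test (R 4.3.3) was run with TMM, filterByExpr (13882 genes kept) and a mean per group over all 12 libraries, with Benjamini-Hochberg adjustment over all genes and a threshold of 0.05. The SE is the log2 difference divided by the square root of the F statistic, and intervals are 1.96 SE wide on each side. They use a normal quantile and are narrower than edgeR's test would give. Likeness to Mbnl3 was computed on log2 CPM with a prior count of 2. Shares of a family, in CPM per kb of merged exon, were compared by two-sided exact permutation over 70 assignments. Alternatives were DESeq2 1.42.0, voom with quality weights (limma 3.58.1), other scalings, filters, thresholds and subsets, the replicate number as a block, and leaving out each library. The step that computes the tests was tested on simulated data.

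Named are all members, the 5 genes most like Mbnl3, the genes past the threshold of each list (otherwise the highest and lowest in the TKO comparisons), Rb1, E2f7 and E2f8, and markers that moved with a member. H19, Igf2, Gpc3, Igf2bp3, Xist and the neighbors of Mbnl3 were named after their values were seen. So were genes quoted for a list's lowest p or widest difference in DKO against control. The same replicate numbers recur in each group but mark different mice, and the deviations of same-numbered libraries correlated at -0.17 to 0.37, so the numbers were not taken as pairs. No libraries of a group were alike enough to be 1 library deposited more than once. Control livers 2 and 3 were the most alike pair, with a chi-square per gene between their counts of 19.9. Every other pair within a group was at 63.2 or more, so the 4 control livers were not equally unlike each other.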

Additional observations from a re-analysis of the deposited data

Results flagged for a closer look

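Of 36 groups of 4 values examined (9 members and 3 shares in 3 groups), 7 held a library far from the other 3, its gap to the nearest value, as a part of the range, being above Dixon's 95% critical value. Chance alone gives about 1 such group in 20 for normal values. The shares use the same counts as the members, so the 36 groups are not independent, and an excess over chance was not tested. DKO tumor 3 was the lone high library for Celf2 (16.9 CPM, nearest 5.14), for the Celf2 share of Celf1 and Celf2 (13.6%, nearest 4.61) and for Esrp1 (0.473 CPM, from 8 counts, nearest 0.0791). The Esrp2 share of Esrp1 and Esrp2 in the same tumor was the lone low value (99.3%, nearest 99.9), a difference that rests on those 8 Esrp1 counts. Control liver 2, the library with the fewest counts, was the lone low control for Mbnl3 (0.246 CPM, from 2 counts, nearest 0.474), for the Mbnl3 share of the MBNL genes (0.140%, nearest 0.216) and for Celf1 (48.6 CPM, nearest 64.9). Results for Celf2 without DKO tumor 3 stand in the report.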

How the results depend on the processing

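Over the 22 tested fold changes of members, with the TKO comparisons of Mbnl3 left out because they carry no test, 438 refits were made. Of these, 420 kept direction and side of the threshold, 3 newly passed it (all Celf2 in DKO against control) and 15 changed sign. With 1 library left out at a time, signs changed for Mbnl2 in DKO against control (-0.051 to 0.237), TKO against control (-0.29 to 0.16) and TKO against DKO (-0.34 to 0.10), for Esrp2 in DKO against control (-0.191 to 0.035) and TKO against control (-0.005 to 0.22), and for Ptbp1 in DKO against control (-0.001 to 0.128). With total counts as the only scaling, Mbnl1 (0.03) and Mbnl2 (0.15) in TKO against control and Mbnl2 in TKO against DKO (0.041) changed sign. The Esrp2 share between TKO and DKO ran from -0.158 to 0.074 points with 1 library left out. None of these values passed the test, and the cause was not tested.

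The members called in DKO against control were 1, always Celf2, under DESeq2, voom and an adjusted p of 0.1, and 0 to 1 with a library left out. In TKO against control they were 0 with at least 10 counts in every library, since that filter removes Mbnl3, 0 with the replicate block, and 0 to 1 with a library left out (1 without DKO tumor 3, TKO tumor 3 or TKO tumor 4, and 0 without any of the others), and in TKO against DKO 1, Mbnl3, under DESeq2. Over all genes in DKO against control, DESeq2 called 1518, total counts only 59, the 8 libraries alone 759, voom 1804, an adjusted p of 0.1 1460, and leaving out a library 0 to 651. In TKO against control DESeq2 called 507, no filter 22, voom 97, an adjusted p of 0.1 80, and leaving out a library 0 to 231. In TKO against DKO DESeq2 called 56, and leaving out a library gave 0 calls throughout. The replicate block gave 509 calls in DKO against control and 1 in TKO against control, and 6 of 12 libraries correlated best with their own number. Mbnl3 stayed between a log2 of 2.69 and 3.18 (TKO against control) and 2.05 and 2.57 (TKO against DKO) with a library left out. Counts not divided by length gave differences in its share of 2.63 and 2.36 points for the same comparisons. A covariate for sex could not be fitted, since all libraries showed the same pattern. With 2 to 16 counts of Mbnl3 in control livers and DKO tumors, depth limits its fold change.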
